A study of Mus musculus with 2 samples.

Results

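Nefh-positive Calca neurons are trigeminal sensory neurons that hold both the mRNA of Calca, which encodes the neuropeptide CGRP, and that of Nefh, which encodes the heavy neurofilament subunit. They were chosen in single-cell RNA profiles of mouse trigeminal ganglion (TG) by thresholds on measured values. Kept cells had at least 150 genes and at most 25% of their unique molecular identifiers (UMIs, counted mRNA molecules) in mitochondrially encoded genes. Neurons had at least 5000 UMIs, of which at least 10 came from Tubb3, Snap25 and Stmn2 together. Among them, Nefh-positive Calca neurons had at least 5000 CPM (UMIs of a gene scaled to a common total per cell or class) of Calca and at least 300 CPM of Nefh, at most 2 UMIs of Trpm8 and under 100 CPM of Mrgpra3. The rule selected 66 neurons out of 1204, 41 of them control and 25 of them CFA neurons.

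The cells came from right TGs of male C57BL/6 mice aged 5 to 8 weeks, whose vibrissal pad had been injected 7 days before. The CFA group received 20 µL of complete Freund's adjuvant, an inflammatory emulsion, diluted 1:1 in saline, and the control group received saline according to the methods, while the labels call it untreated. The methods name 6 mice per group, and the number of mice behind a library is not given in the sources used here. Tissue was dissociated with papain and cleared on a density gradient, and each condition had 1 BD Rhapsody library, so mice of a group cannot be told apart and nothing tests CFA against control.

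Peptidergic nociceptors are sensory neurons that detect damaging heat, pressure or chemicals and release peptides such as CGRP and substance P. Most have thin unmyelinated axons called C fibres, and a minority have lightly myelinated A-delta fibres, whose larger axons carry more neurofilament protein. In the TG both kinds supply the face, the teeth and the meninges, and CGRP released there widens vessels.

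The Nefh-positive Calca neurons made up 5.16% (95% Clopper-Pearson interval 3.73 to 6.93) of the 795 control neurons and 6.11% (3.99 to 8.89) of the 409 CFA neurons. These intervals, like those of all levels and ratios given here, cover counting error only. Of the neurons with at least 5000 CPM of Calca they were 10.6% (of 388, control) and 12.02% (of 208, CFA). Their median depth was 39262 UMIs (range 7177 to 108944) in control and 28246 UMIs (5060 to 119115) in CFA tissue, and their UMIs summed to 1711869 and 889358. The libraries had 27 cell barcodes in common, none of them from a Nefh-positive Calca neuron. Scrublet called 102 doublets among the kept control cells and 4 among the kept CFA cells, none of them a Nefh-positive Calca neuron. The CFA threshold was high (0.489, against 0.276 in the control library), so doublets of the CFA library may have been missed.

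The Nefh values ran without a gap across the threshold, and they are given only to describe the rule. The median was 367 CPM for control and 419.6 CPM for CFA neurons. Between 300 and 400 CPM lay 29 control neurons and 12 CFA neurons, and just outside, between 200 and 300 CPM, lay 34 and 29. No control neuron and 2 CFA neurons reached 1000 CPM. The call rested on 5 or fewer Nefh UMIs in 3 control neurons and 7 CFA neurons. For Calca, 2 control neurons and 4 CFA neurons lay between 5000 and 6000 CPM, and 3 and 4 neurons with enough Nefh lay just outside, between 4000 and 5000 CPM. The limit on Trpm8 removed 3 control neurons, and that on Mrgpra3 removed no neuron.

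**Figure D1:**
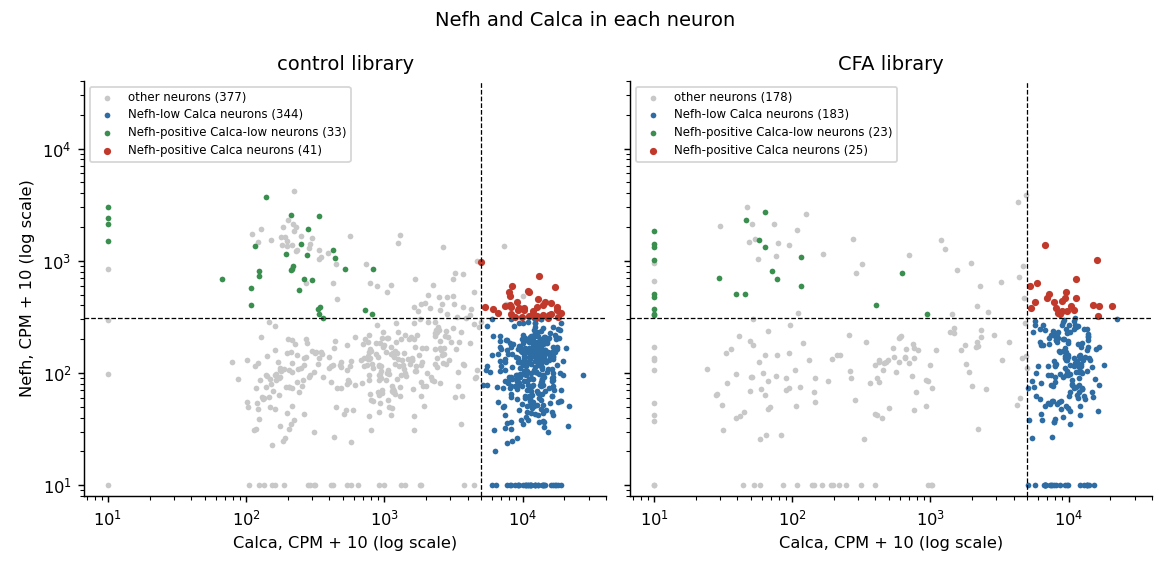
Each point is 1 neuron of the control (left) or CFA (right) library, with Calca on the x axis and Nefh on the y axis, both in CPM + 10 on log scales, and dashed lines at the thresholds. The 41 and 25 red neurons in the upper right continue the cloud of Nefh-low Calca neurons (blue), and 3 grey neurons in the same corner of the control panel held more than 2 Trpm8 UMIs.

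These neurons were compared with 2 other sets. Nefh-low Calca neurons had the same Calca level and under 300 CPM of Nefh (344 control and 183 CFA neurons), and Calca-low neurons had at least the same 300 CPM of Nefh, the same limits on Trpm8 and Mrgpra3 and under 1000 CPM of Calca (33 and 23 neurons). UMIs were summed per class and library and tested with edgeR's quasi-likelihood test with the library as a block. A gene was called at a Benjamini-Hochberg adjusted p below 0.05 and a log2 change of at least 1, and the 7 genes of the rule were not tested. The 2 libraries were the replicates, with 1 residual degree of freedom that edgeR pooled across genes. The p-values therefore measure only the spread between these 2 libraries, which differ in treatment.

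Against Nefh-low Calca neurons, with Calca equally high, 119 of 12300 genes rose (0.967%) and 82 fell (0.667%). Among the 12 named by the rule for increases were Cpne6, Chp2, Sfrp1, S100b, Gm765, Thy1, Trappc3l and Htr3a, in this order. Expression of the peptide, heat and pain receptor genes Tac1, Trpv1 and Trpa1 was high in both classes and was not called. At an adjusted p alone, 229 genes were higher (1.86%) and 189 lower (1.54%). Without the library block 48 genes rose and 21 fell, and among the genes named here the calls of Piezo2, Scn8a, Kcna1, Ntrk3, Prokr2, Nfia, Cntnap1, Sstr2, Zcchc12, Fxyd6, Synpr, Gfra1, Chrnb4, Cck, Tafa1, Iigp1 and Gbp2 were lost. DESeq2 called 63 and 29 genes, without Zcchc12, Kcna1, Ntrk3, Nfia, Cntnap1 and Cxcl9.

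Cpne6 encodes a copine, a membrane-binding protein that responds to calcium. It stood at 182 CPM in control and 340 CPM in CFA Nefh-positive Calca neurons, against 22.6 and 14.7 CPM in Nefh-low Calca neurons, with a log2 difference of 3.65 (95% interval 3.18 to 4.13, edgeR adjusted p = 6.95e-08). Both libraries showed the increase, and the cells were uneven, since 23 of 41 control and 13 of 25 CFA neurons had a UMI and 1 CFA neuron held 46.0% of the CFA UMIs. Chp2, which encodes a cofactor of sodium-proton exchangers, was at 125 and 308 CPM against 18.1 and 43.8 CPM (log2 2.82, 2.56 to 3.07, edgeR adjusted p = 1.68e-09). S100b, a calcium-binding protein gene best known from glia, was at 386 and 706 CPM against 83.7 and 70.1 CPM (log2 2.75, 2.38 to 3.11, edgeR adjusted p = 7.69e-08). The part of glial RNA in S100b was not tested, and cells without a neuronal UMI held it at 615 CPM (control) and 858 CPM (CFA). Of the 6 satellite glia markers Apoe was the most abundant. Together they summed to 207 and 63.0 CPM in Nefh-positive Calca neurons against 213 and 111 CPM in Nefh-low ones.

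Thy1, a glycoprotein of the neuronal surface and a common driver of transgenes in projection neurons, was at 713 and 1104 CPM against 167 and 180 CPM (log2 2.36, 2.14 to 2.58, edgeR adjusted p = 1.68e-09). Htr3a encodes a subunit of the serotonin-gated cation channel. It was at 303 CPM in control and 290 CPM in CFA Nefh-positive Calca neurons, against 58.2 and 61.9 CPM (log2 2.33, 2.11 to 2.55, edgeR adjusted p = 1.78e-09), so the levels in the libraries were close and lay 5.03-fold above the Nefh-low class. Hopx, a homeodomain gene that lacks DNA binding, was more widely held, with a UMI in 38 and 22 neurons, and was at 352 and 708 CPM against 113 and 144 CPM (log2 1.98). Nrp2, a coreceptor for semaphorins, was at 70.1 and 95.6 CPM against 21.3 and 22.7 CPM (log2 1.89). Sfrp1, a secreted Wnt antagonist, was at 70.1 and 95.6 CPM against 12.7 and 10.7 CPM (log2 2.77), and Syt6, a synaptotagmin, was at 60.8 and 93.3 CPM against 19.5 and 18.4 CPM (log2 1.97). The other genes named by the same rule, Gm765, Trappc3l and D930028M14Rik, had log2 differences of 2.62, 2.34 and 2.10. In GENCODE M21 (GRCm38), Cpne6 lies at chr14:55510445-55517431, Chp2 at chr7:122219496-122222824, S100b at chr10:76253853-76261159, Thy1 at chr9:44043384-44048579 and Htr3a at chr9:48899213-48911099, and no annotated gene overlaps these 5 on the same strand.

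**Figure D2:**
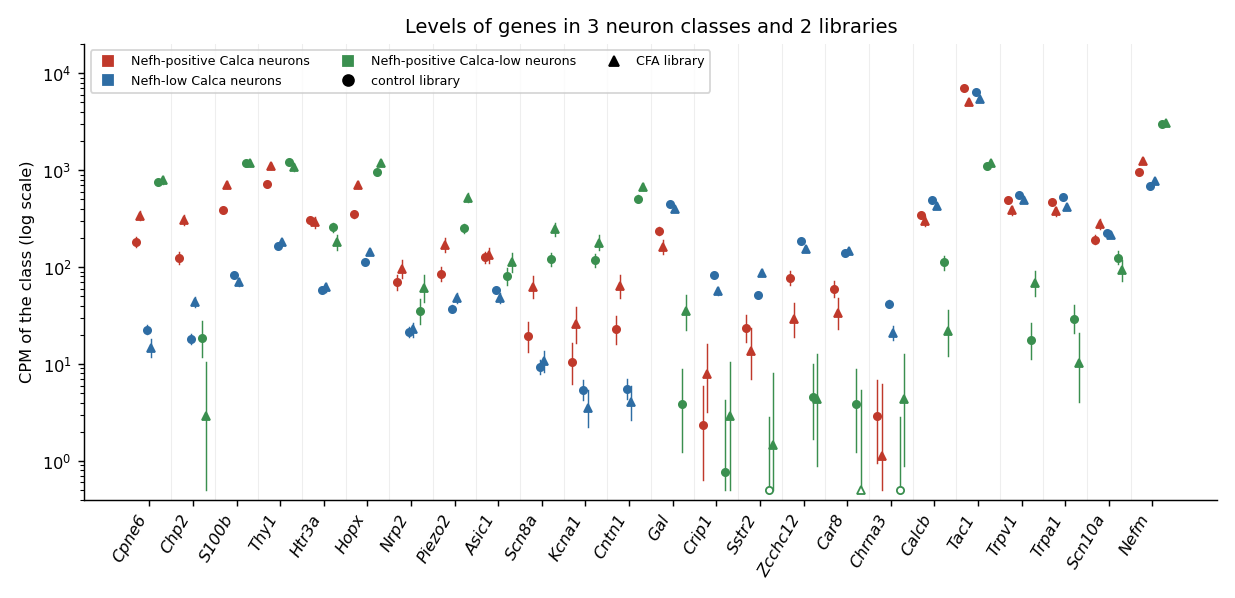
Levels of 24 genes as CPM of a class on a log scale, with red for Nefh-positive Calca neurons, blue for Nefh-low Calca neurons and green for Calca-low neurons, circles for the control and triangles for the CFA library, and bars for exact Poisson 95% intervals (open symbols: 0 UMIs, drawn at 0.5). For Cpne6 and Htr3a both red symbols lie above both blue ones, and for Tac1 and Trpv1 they lie close together.

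Cells with no UMI of Tubb3, Snap25 and Stmn2 were used as a set that should lack neuronal RNA other than free RNA. They are cells, largely of glial kind (myelinating Schwann cell markers summed to 35033 and 28776 CPM in them), with a median depth of 1198 UMIs (control) and 1040 UMIs (CFA). A Htr3a UMI was present in 0.328% and 0.187% of them, a Cpne6 UMI in 1.01% and 0.712% and a Thy1 UMI in 2.37% and 1.12%. Chp2 was found in 8.11% and 9.67% and S100b in 37.2% and 41.2%. By definition the set leaves out cells that took up free Tubb3, Snap25 or Stmn2 RNA, so its shares can understate free neuronal RNA. With every neuron thinned to 10000 UMIs, which left out 4 shallower Nefh-positive Calca neurons in each library, Htr3a was detected in 48.6% and 38.1% of them and in 20.1% and 18.9% of Nefh-low Calca neurons. Thy1 was detected in 67.6% and 66.7% against 29.4% and 26.9%, and Cpne6 in 43.2% and 33.3% against 13.2% and 7.43%. At equal depth the shares of cells were thus higher too. These genes were named for being higher over the same cells, so the shares describe the increase and do not test it. The S100b shares were 51.4% and 42.9% against 35.4% and 33.1%. Glia express S100b themselves, so its share in the cells without neuronal UMIs is not a measure of free RNA. Without thinning, Htr3a was detected in 56.1% and 52.0% of Nefh-positive Calca neurons.

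Among the ligands, Tac1, the gene of substance P, was at 7112 and 5058 CPM against 6385 and 5383 CPM and did not pass the test (log2 0.05, -0.08 to 0.18, edgeR adjusted p = 0.825). Of the 15 neuropeptide and peptide processing genes, 10 could be tested, 1 rose and 1 fell, and their median log2 difference was -0.16, against -0.0018 over all genes tested. Gal, which encodes galanin, fell: it was at 237 and 162 CPM against 452 and 399 CPM (log2 -1.07, edgeR adjusted p = 1.1e-05). Without the CFA neuron of most UMIs its log2 difference was -0.98, which is short of the call. Adcyap1, the gene of PACAP, was at 1489 and 1231 CPM against 1797 and 1918 CPM, and Calcb, which encodes the beta form of CGRP, at 345 and 300.2 CPM against 496 and 427 CPM. Both passed the adjusted p but fell short of a log2 change of 1 (-0.43 and -0.50). Cck, the cholecystokinin gene, was the one that rose, and it came from 3 control neurons and 1 CFA neuron.

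Receptors of mechanical force and acid were next. Of 12 genes for mechanical, acid and ATP receptors 10 were tested, 2 rose and none fell (1 fell at an unadjusted p below 0.05, and DESeq2 called none as lower), with a median log2 difference of 0.04. Piezo2, the main channel of light touch, was at 85.3 and 169 CPM against 37.2 and 48.1 CPM (log2 1.51, 1.19 to 1.82, edgeR adjusted p = 1.46e-05). Asic1, an acid-gated channel, was at 126 and 133 CPM against 57.5 and 48.1 CPM (log2 1.28, edgeR adjusted p = 1.5e-05). Both rose in each library, whereas Asic3, the acid-gated channel typical of muscle and vessel afferents, reached a log2 difference of only 0.68 (226 and 180 CPM against 134 and 124 CPM, edgeR adjusted p = 0.00103). The ATP receptor gene P2rx3 was low in both classes (11.7 and 8.995 CPM against 14.7 and 10.4 CPM).

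Of the 11 TRP channel genes 10 were tested, none rose (also none at an unadjusted p below 0.05 or by DESeq2) and 1 fell, with a median log2 difference of -0.19. Trpv1, the capsaicin and heat receptor, was at 489 and 383 CPM against 555 and 494 CPM (log2 -0.25, -0.42 to -0.08, edgeR adjusted p = 0.142). Trpa1, the receptor of mustard oil, was at 474 and 377 CPM against 526 and 413 CPM (log2 -0.13, edgeR adjusted p = 0.603). Neither passed the test. The Nefh-low class as the rule has it holds 27 neurons with at least 100 CPM of Mrgpra3, the receptor of itch neurons, of which 20 were control and 7 were CFA neurons. A further CFA neuron of that class held more than 2 Trpm8 UMIs.

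Several of the strongest decreases shrank without these 28 neurons. Acpp, an acid phosphatase gene, fell by 2.93 on the log2 scale, and by 0.76 with the limits on Mrgpra3 and Trpm8 asked of both classes. For Etv1, an ETS transcription factor, these values were -2.34 and -0.26, and for Gfra1, the GDNF receptor, -2.18 and -0.17. For Cd55, a complement regulator, they were -1.46 and -0.63. None of the 4 was called with the limits, and Synpr, a vesicle protein gene, turned from -1.46 to 0.30. The calls that held under the same limits were those of Crip1, Sstr2, Zcchc12, Car8, Mgst3, Mpped2, Fxyd6 and Ndrg2.

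Crip1, which encodes a small LIM protein, was at 2.34 and 7.87 CPM in Nefh-positive Calca neurons against 82.6 and 56.8 CPM (log2 -4.07, -4.77 to -3.38, edgeR adjusted p = 1.59e-06). It rested on 4 control and 7 CFA UMIs. Sstr2, the somatostatin receptor gene of a peptidergic C-fibre subset, was at 23.4 and 13.5 CPM against 51.3 and 87.6 CPM (log2 -1.67, edgeR adjusted p = 0.00071). Zcchc12, a zinc finger gene, was at 77.7 and 29.2 CPM against 187 and 154 CPM (log2 -1.59). Car8, a protein that binds the IP3 receptor, was at 59.6 and 33.7 CPM against 138 and 147 CPM (log2 -1.51). In each of these genes both libraries lay below both values of the Nefh-low class. Mgst3, Mpped2, Fxyd6 and Ndrg2 had log2 differences of -1.38, -1.30, -1.19 and -1.18.

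Among 33 G protein-coupled and nicotinic receptor genes 26 were tested, 2 rose (Htr3a and Prokr2) and 3 fell (Sstr2, Chrna3 and Chrnb4), with a median log2 difference of -0.03. Prokr2, a prokineticin receptor, was at 39.7 and 56.2 CPM against 12.5 and 23.7 CPM (log2 1.49, edgeR adjusted p = 0.000338), with a UMI in 11 control and 10 CFA neurons. The nicotinic subunit genes Chrna3 and Chrnb4 were at 2.92 and 1.12 CPM against 42.1 and 20.9 CPM (log2 -3.89) and at 7.01 and 5.62 CPM against 43.4 and 24.1 CPM (log2 -2.46). With a Nefh threshold of 150 CPM the log2 differences turned to 0.33 and 0.37. Chrnb3, another subunit gene, was not called (88.8 and 63.0 CPM against 106 and 99.6 CPM).

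Of the neurotrophic factor receptors 12 were tested, 1 rose and 1 fell, with a median log2 difference of 0.02. The 1 that fell, Gfra1, was not called with the limits on Mrgpra3 and Trpm8 asked of both classes (log2 -0.17). Ngfr, the shared neurotrophin receptor p75, passed the adjusted p at a log2 difference of 0.68 (704 and 1187 CPM against 551 and 600 CPM, edgeR adjusted p = 0.00112), below the size asked for a call. Ntrk3, the NT-3 receptor TrkC of large A-fibre neurons, was called at a low level (26.9 and 16.9 CPM against 9.91 and 7.89 CPM, log2 1.33, edgeR adjusted p = 0.0195). Ret, the GDNF family coreceptor, leaned the other way at 325 and 324 CPM against 513 and 459 CPM (log2 -0.57, edgeR adjusted p = 0.000655). Kit and Gfra3 had log2 differences of -0.01 and 0.05.

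Sodium channel genes numbered 10 tested, of which 2 rose and none fell (2 fell at an unadjusted p below 0.05, and DESeq2 called none as lower), with a median log2 difference of 0.20. Scn8a, the channel of nodes of Ranvier, was at 19.3 and 63.0 CPM against 9.34 and 10.7 CPM (log2 1.83, edgeR adjusted p = 0.00298). Scn4b, a beta subunit of fast-firing neurons, was at 25.7 and 40.5 CPM against 6.99 and 5.26 CPM (log2 2.36, edgeR adjusted p = 0.000321). The beta subunit gene Scn2b reached 0.96. At an adjusted p alone 5 of the 10 genes were higher and 1 was lower. The nociceptor channel gene Scn10a did not pass, at 192 and 278 CPM against 227 and 216 CPM (log2 0.06, edgeR adjusted p = 0.911). Scn11a, another, passed as lower but short of the size asked for a call. It was at 248 and 200.1 CPM against 387 and 364 CPM (log2 -0.72, edgeR adjusted p = 0.000212).

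Of 24 potassium and HCN channel genes tested, 2 rose and none fell by the call (2 were lower at an adjusted p below 0.05 but short of the size, the same number as at an unadjusted p, and DESeq2 called none as lower), with a median log2 difference of 0.18. They were the axonal channels Kcna1 (10.5 and 25.9 CPM against 5.42 and 3.56 CPM, log2 1.84, edgeR adjusted p = 0.03) and Kcna2 (95.2 and 133 CPM against 42.0 and 53.1 CPM, log2 1.26, edgeR adjusted p = 1.75e-05). Kcna1 rested on 18 and 23 UMIs, and Kcna2 was found in 31 and 19 neurons. The lower ones were Kcnk3, a leak channel gene (-0.91, edgeR adjusted p = 0.00103), and Kcnc4, a fast channel gene (-0.82, edgeR adjusted p = 0.00189). Of 11 calcium channel genes tested edgeR and DESeq2 called none, with 1 at an unadjusted p below 0.05 and a median of -0.04.

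Axon contact and node genes had a median log2 difference of 0.42, with 10 of 11 differences above 0 and 2 genes called as higher, while none was lower at an unadjusted p below 0.05 or by DESeq2. Cntn1, a paranodal adhesion protein gene, was at 22.8 and 64.1 CPM against 5.56 and 4.02 CPM (log2 2.95, edgeR adjusted p = 0.000226), but it was found in 12 and 5 neurons, and 1 CFA neuron held 61.4% of the CFA UMIs. Cntnap1, its partner Caspr, was at 38.0 and 46.1 CPM against 19.9 and 18.4 CPM (log2 1.11, edgeR adjusted p = 0.00429) and was more evenly spread, in 25 and 12 neurons. Among the other filament genes, which the rule did not use, Nefm passed the adjusted p at a log2 difference of 0.60 (963 and 1248 CPM against 693 and 772 CPM, edgeR adjusted p = 0.000122). Ina, the internexin gene, passed it as lower at -0.50 (97.6 and 115 CPM against 153 and 145 CPM, edgeR adjusted p = 0.0298). Nefl did not pass (0.37, edgeR adjusted p = 0.0515), and Prph, the peripherin gene of small neurons, was at -0.10.

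Of 19 transcription factor genes tested, 2 rose and 1 fell, with a median log2 difference of 0.06. Maf, which acts in mechanoreceptor development, was at 24.5 and 36.0 CPM against 8.48 and 10.4 CPM (log2 1.67, edgeR adjusted p = 0.0016), and Nfia was at 20.4 and 66.3 CPM against 14.7 and 15.2 CPM (log2 1.33, edgeR adjusted p = 0.023). Runx1, a regulator of C-fibre neurons, leaned lower (81.2 and 118 CPM against 114 and 183 CPM, log2 -0.54, edgeR adjusted p = 0.0168). In the release machinery, 1 of 18 genes tested rose, Syt2, the fast calcium sensor of release (70.7 and 86.6 CPM against 36.6 and 39.8 CPM, log2 1.04), and none fell by edgeR or DESeq2 (2 at an unadjusted p below 0.05, of which Syt4, at -0.65, passed the adjusted p). The Syt2 call was lost without the 28 neurons over the limits (0.90) and without the deepest CFA neuron (0.98).

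The label of putative A-delta fibre neurons was read against a list of markers of the peptidergic A-fibre subset. Of its 7 genes tested 2 rose, Smr2 and Tafa1, and the median log2 difference was 0.03. None was lower at an unadjusted p below 0.05 or by DESeq2. Smr2, a salivary peptide gene that marks this subset in dorsal root ganglia, was at 21.6 and 4.498 CPM against 0.499 and 0 CPM. In the CFA library it rested on 4 UMIs, and it came from 4 control and 3 CFA neurons. Tafa1 had 95.8% of its CFA UMIs in 1 neuron and was not called without it (log2 1.19). Kit, Npy2r and Adra2a had differences of -0.01, -0.04 and -0.43, and Pappa had no UMI. Of the 9 genes of the peptidergic C-fibre list 2 fell, Sstr2 and Gal, and none rose (none at an unadjusted p below 0.05 or by DESeq2), with a median of -0.25. The neurons are therefore named by their rule. Axon type and conduction were not measured.

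The 8 markers of large A-fibre neurons summed to 235 and 314 CPM in Nefh-positive Calca neurons, against 178 and 120.1 CPM in Nefh-low and 1628 and 1612 CPM in Calca-low neurons. Cplx1 was the most abundant, and Spp1 and Esrrg were at 0. Markers of other cells were summed over each class. Myelinating Schwann cell markers, with Pmp22 leading, summed to 633 and 632 CPM against 919.7 and 662 CPM, with Prx lower (1 UMI in each library), and fibroblast markers, with Dcn leading, to 103 and 65.2 CPM against 163 and 118 CPM, with Dcn lower and Col1a1 higher, 87.0% of whose control UMIs came from 1 neuron. Non-myelinating Schwann cell markers (L1cam leading) summed to 920.0 and 942 CPM against 883 and 859.9 CPM. Endothelial markers (Pecam1 leading) summed to 42.1 and 27.0 CPM against 39.7 and 26.5 CPM, with Cldn5 at 0, and immune markers (Lyz2 leading) to 21.0 and 3.37 CPM against 9.84 and 3.25 CPM, with Ptprc at 0. Markers of Mrgpra3 neurons (Mrgprx1 leading) summed to 6.43 and 2.25 CPM with Mrgprb4 at 0, against 113 and 75.7 CPM in the Nefh-low class. Erythroid markers stood at 293 CPM in the control library, where 1 neuron held 92.7% of the Hbb-bs UMIs, and at 32.6 CPM in the CFA library, against 15.04 and 53.8 CPM, with Hbb-bs called as higher. The part of these cells in the results was not tested.

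The levels over bins of Nefh, which the rule used, are given as a description only. Among Calca neurons within the limits on Trpm8 and Mrgpra3, control neurons with under 100, with 100 to 300 and with 300 to 1000 CPM of Nefh (159, 165 and 41 neurons) held Htr3a at 54.0, 66.1 and 303 CPM. CFA neurons held it at 48.0, 74.98 and 253 CPM, and at 595 CPM in the 2 neurons with at least 1000 CPM of Nefh. Thy1 was at 100.2, 255 and 713 CPM for control and 115, 265 and 979 CPM for CFA neurons. Gal was at 564, 454 and 237 CPM for control and 449, 409 and 180 CPM for CFA neurons. Trpv1 was between 489 and 597 CPM for control and between 388 and 518 CPM for CFA neurons over these 3 bins.

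Against Calca-low neurons, which share the Nefh minimum but held more of it (1036 and 1097 CPM, against 384 and 510.5 CPM in Nefh-positive Calca neurons), 453 of 9851 genes rose (4.6%) and 591 fell (6.0%). Of 11 neuropeptide genes tested 8 rose and 1 fell, and of 9 TRP channel genes tested 3 rose and 1 fell. The 8 markers of large A-fibre neurons summed to less than in Calca-low neurons, with 6 of 6 tested falling. Of the axon contact and node genes 5 of 11 tested fell and none rose. Of 25 potassium and HCN channel genes tested 8 fell and 2 rose, and of 4 filament genes tested Nefm fell and Ina rose. At an adjusted p alone, 805 genes were higher (8.17%) and 881 lower (8.94%). DESeq2 called 163 and 243 genes. Its list counts were smaller for neuropeptide genes (4 rose) and for axon contact and node genes (3 fell). With DESeq2, none of the potassium and HCN channel genes rose and 7 fell. Calb1, Lgi2 and Gal were among the genes it did not call. Markers of other kinds of neuron were higher in Calca-low neurons. There, markers of C-fibre low-threshold mechanoreceptors summed to 279.5 and 278.5 CPM, against 22.2 and 27.0 CPM in Nefh-positive Calca neurons (4 of 4 tested fell), those of Mrgprd neurons to 219 and 106 CPM, against 43.2 and 32.6 CPM, and those of Sst and Nppb neurons to 44.7 and 72.5 CPM, against 2.92 and 3.37 CPM. Their part in the differences was not tested.

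Of 11 neuropeptide genes tested 8 rose and 1, Sst, fell (log2 -6.44), with a median log2 difference of 2.46, against -0.0062 over all genes tested. Tac1 was at 7112 and 5058 CPM against 1093 and 1171 CPM (log2 2.46, 2.16 to 2.77, edgeR adjusted p = 4.84e-06). Adcyap1 was at 1489 and 1231 CPM against 135 and 155 CPM (log2 3.30), and Cartpt, the CART peptide gene, at 369 and 268 CPM against 18.5 and 11.6 CPM (log2 4.43). Both values of each gene lay above both values of the Calca-low class. Among receptors, Trpa1 was at 474 and 377 CPM against 29.3 and 10.2 CPM (log2 4.39, edgeR adjusted p = 3.43e-06) and Trpv1 at 489 and 383 CPM against 17.7 and 68.2 CPM (log2 3.62, edgeR adjusted p = 0.00013). Gfra3, the artemin receptor, had a log2 difference of 3.50. Of the 8 tested genes of the peptidergic C-fibre list 6 rose and 1 fell (4 and none by DESeq2).

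The largest increases by the naming rule were those of Vmn1r85 (80.6 and 81.0 CPM against 0.770 and 4.35 CPM, log2 5.29), Thbd, the thrombomodulin gene (88.8 and 94.5 CPM, against 4.62 CPM in the control library and at least 21.7-fold higher in the CFA library, where Calca-low neurons had none), and Chrnb3 (at least 14.5-fold higher in the CFA library). S100a11 followed with 472 and 342 CPM against 20.8 and 15.96 CPM (log2 4.52, edgeR adjusted p = 2.1e-06). At the other end Calb1, the calbindin gene, had no UMI in any of the 66 neurons, against 100.1 and 158 CPM, at least 57.1-fold (control) and 46.9-fold (CFA) lower. Lgi2 was also at 0, at least 35.1-fold and 52.0-fold lower. These least folds set the class without a UMI to a floor of 3 UMIs and leave out the counting error of the other class. Cbln2, Gda, Hs3st4 and Syt3 had 3 UMIs or fewer in either library. With Calca-low neurons taken up to 5000 CPM of Calca, the log2 difference was 1.56 for Vmn1r85, 1.57 for Chrnb3, 3.65 for Thbd, 2.83 for S100a11, 2.92 for Cartpt, 2.09 for Trpa1 and 1.95 for Trpv1.

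The genes that had set the Nefh-positive Calca neurons apart from the Nefh-low class lay on both sides here. Chp2 was again higher (125 and 308 CPM against 18.5 and 2.90 CPM, log2 3.89, edgeR adjusted p = 0.000268). Cpne6 was lower than in Calca-low neurons (757 and 791 CPM there, log2 -1.60), as were S100b (1172 and 1190 CPM, log2 -1.13) and Hopx (949 and 1178 CPM, log2 -1.04). Thy1 (log2 -0.33, -0.69 to 0.04, edgeR adjusted p = 0.235) and Htr3a (257 and 181 CPM, log2 0.48, 0.15 to 0.81, edgeR adjusted p = 0.0488) were not called. The comparisons share the Nefh-positive Calca neurons, so their values are given side by side and were not correlated.

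Piezo2 was at 250.2 and 521 CPM in Calca-low neurons (log2 -1.54, edgeR adjusted p = 5.31e-05). The level summed over Nefh-positive Calca neurons thus lay between those of the 2 classes, though single neurons differed widely, as described below. Scn8a (121 and 245 CPM, log2 -2.22), Kcna1 (118 and 178 CPM, log2 -3.07), Cntn1 (507 and 677 CPM, log2 -3.86), Ntrk3 (247 and 312 CPM, log2 -3.51) and Nefm (2975 and 3035 CPM, log2 -1.41) had the same order. All 11 axon contact and node genes tested had differences below 0, with 5 called and a median of -0.99 (none was higher at an unadjusted p below 0.05 or by DESeq2). Asic1 and Asic3 were not called (0.51 and 0.62), and Scn10a was higher by 1.08 on the log2 scale (126 and 92.8 CPM in Calca-low neurons), a call that was lost with Calca-low neurons up to 5000 CPM of Calca.

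**Figure D3:**
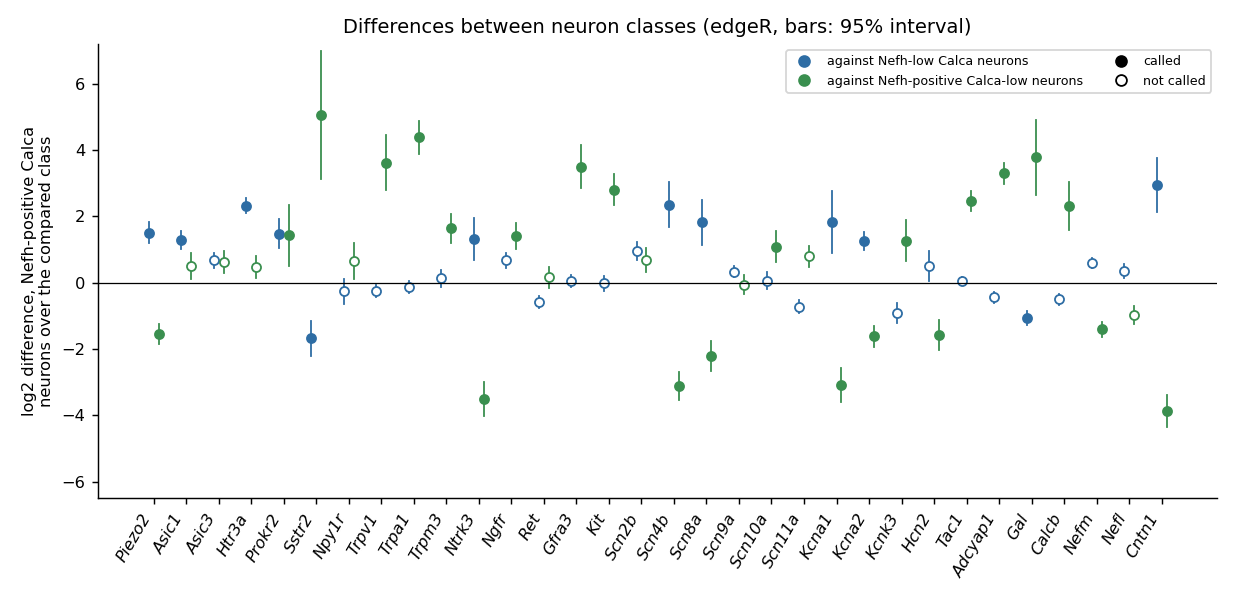
Log2 difference of Nefh-positive Calca neurons over Nefh-low Calca neurons (blue) and over Calca-low neurons (green) for receptor, channel, peptide and axon genes, as edgeR estimates with 95% intervals, filled where called. Piezo2, Scn8a and Cntn1 lie above 0 in blue and below 0 in green, and Trpv1 and Tac1 lie near 0 in blue and above 0 in green.

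The 66 neurons were not alike. To describe this, cells were counted by how many of Cpne6, Chp2, S100b, Thy1 and Htr3a they held at 3 or more UMIs. This split was chosen after the values were seen, and nothing in it was tested. Of the control neurons 18 held 0 or 1 of the 5 genes, 10 held 2 or 3, and 13 (31.7%) held 4 or 5. Of the CFA neurons 12, 4 and 9 (36.0%) did. Of the Nefh-low Calca neurons, over which the 5 genes had been picked as high, 5.23% (control) and 7.65% (CFA) held 4 or 5, and of the Calca-low neurons 27.3% and 34.8% did. Depth moved with the split: the median was 25930.5 UMIs with 0 or 1 gene and 58196 UMIs with 4 or 5 among control neurons, and 26382.5 and 61497 UMIs among CFA neurons. Among neurons of at least 20000 UMIs the numbers were 14, 7 and 12 (of 33, control) and 7, 1 and 7 (of 15, CFA).

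Neurons with 4 or 5 of these genes had lower medians of Tac1, Gal and Trpa1 and a higher median of Piezo2. Median Tac1 was 10651 CPM with 0 or 1 gene and 3877 CPM with 4 or 5 among control neurons, and 8356 and 4006 CPM among CFA neurons. Median Gal was 374 and 43.4 CPM in control and 295 and 0 CPM in CFA neurons, and median Trpa1 was 493 and 17.9 CPM and 709 and 35.0 CPM. Piezo2 ran the other way, with medians of 0 and 166 CPM in control and 0 and 285 CPM in CFA neurons. Hopx (180.2 and 520 CPM, then 230.3 and 699 CPM) and Scn10a (71.3 and 260.5 CPM, then 82.7 and 366 CPM) did so too. Nefh, which the rule used, had medians of 340.2 and 359 CPM, then 383 and 461 CPM. Calca, also used by the rule, had lower medians with 4 or 5 genes (9215 against 11816 CPM, then 8093 against 9511 CPM) but higher summed levels (12686 against 11493 CPM, then 9881 against 9599 CPM).

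Under 1000 CPM of Tac1 were 4 control and 4 CFA neurons, of which 4 and 2 held 4 or 5 of the genes. Under 100 CPM of Trpv1 were 2 and 2 neurons, all of them with 4 or 5. Both counts held for 4 neurons, 3 of which also had no UMI of Gal or Trpa1. These were a control neuron of 7177 UMIs and CFA neurons of 10126 and 119115 UMIs, and in the shallower ones Trpv1 and Adcyap1 were at 0 too. The fourth, a control neuron of 39262 UMIs, held Adcyap1 at 1248 CPM and Gal at 535 CPM. The CFA neuron of 119115 UMIs, the deepest, had 34 CPM of Tac1, 8 CPM of Trpv1, 294 CPM of Cntn1 and 2846 CPM of Hopx. It gave 13.4% of the UMIs of all CFA Nefh-positive Calca neurons.

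**Figure D4:**
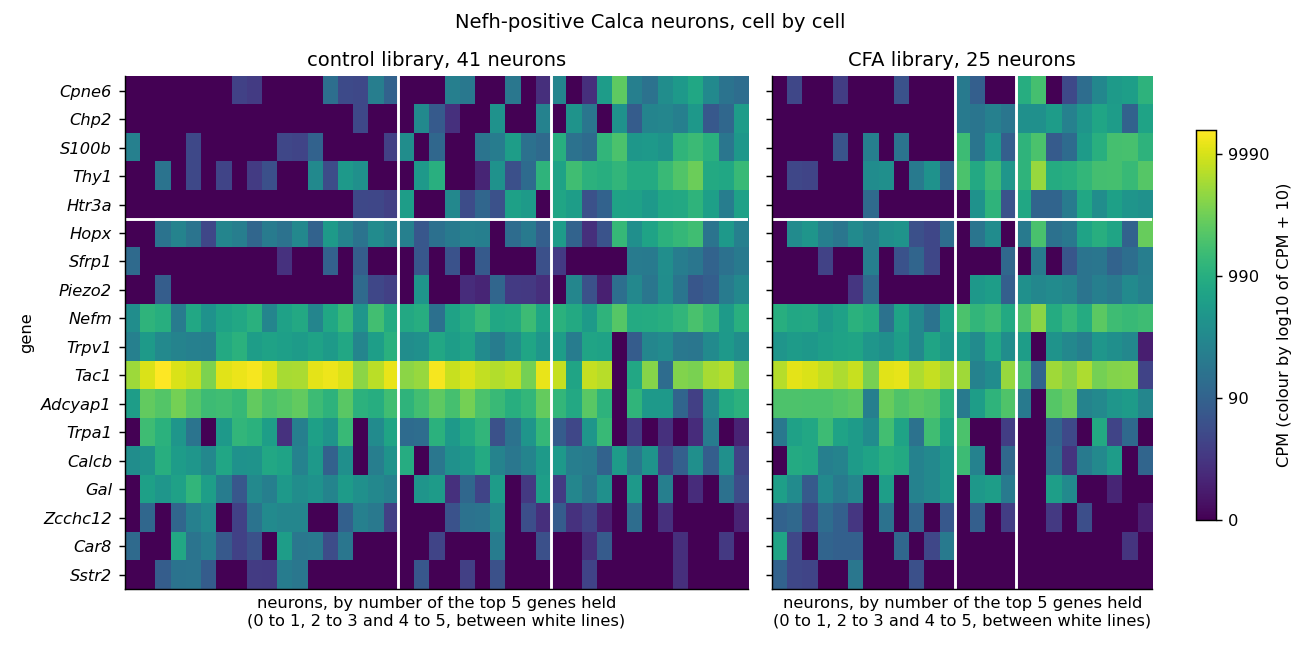
Each column is 1 Nefh-positive Calca neuron of the control (left, 41) or CFA (right, 25) library, ordered by how many of the upper 5 genes it held at 3 or more UMIs and then by depth, and the colour is CPM on a log10 scale. The neurons at the right end of each panel hold 4 or 5 of these genes, and their medians of Piezo2 and Hopx are higher and those of Gal and Trpa1 lower than in the neurons at the left end, with single exceptions such as the control neuron of 108944 UMIs, which had 1441 CPM of Trpa1.

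The CFA and control libraries were set side by side for the 1832 genes with at least 300 UMIs in Nefh-positive Calca neurons. With 1 library per condition there was no test. Past a 2-fold ratio 3 genes were higher in the CFA library (0.164%) and 3 were lower (0.164%), and the median log2 ratio was -0.0068. Of the 8 genes with the highest ratios, 4 had a far lower ratio without the CFA neuron of most UMIs.

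Fgf12, which encodes an intracellular partner of sodium channels, was at 102 CPM (control) and 537 CPM (CFA) (log2 2.39, counting interval 2.14 to 2.65), but 82.0% of its CFA UMIs came from that neuron, and the log2 ratio was 0.13 without it. Hopx fell from 1.01 to 0.10 in the same way. Chp2 was less dependent on it, with log2 ratios of 1.30 (1.04 to 1.57) with and 0.97 without that neuron. It was equally higher in the CFA library among Nefh-low Calca neurons (1.27). With neurons thinned to 5000 UMIs, however, the Chp2 ratio in Nefh-positive Calca neurons was 0.30. Without the deepest CFA neuron no gene was past 2-fold on the high side. Pcp4l1 (256 and 490.2 CPM, 0.93), Cpne6 (0.90), Cacnb4 (94.0 and 173 CPM, 0.88), S100b (0.87) and Pura (190 and 334 CPM, 0.81) followed. Without the neuron Pcp4l1 was at 0.48 and Cpne6 at 0.22, while Cacnb4 was at 0.85, S100b at 0.72 and Pura at 0.88.

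Of the 8 genes with the lowest ratios, 4 were on the interferon list (Iigp1, H2-K1, B2m and H2-D1). Iigp1, an interferon-induced GTPase, was at 210.3 CPM (control) and 30.4 CPM (CFA) (log2 -2.79, -3.41 to -2.23), and H2-K1, a class I histocompatibility gene, at 212 and 76.5 CPM (log2 -1.47, -1.87 to -1.09). B2m (640 and 326 CPM, log2 -0.97) and H2-D1 (381 and 220.4 CPM, log2 -0.79) ran the same way. At Nefh thresholds of 150 and 600 CPM H2-K1 was at -0.56 and -0.15, and H2-D1 at -0.23 and -0.26. B2m was at -0.53 and -1.48 there. The threshold of 600 CPM left only 2 control and 4 CFA neurons. At a Calca threshold of 10000 CPM H2-K1, B2m and H2-D1 were at -2.39, -1.37 and -1.51. Single neurons weighed on these interferon genes. For Iigp1 2 control neurons held 86.7% of the control UMIs and 1 CFA neuron held 96.3% of the CFA UMIs, and without those 2 control neurons, an alternative chosen after seeing the data, the control level was 29.9 CPM and the log2 ratio 0.0201. For H2-K1 1 control neuron held 30.0% of the control UMIs. In Nefh-low Calca neurons the ratios were -3.17 for Iigp1, -0.20 for H2-K1, -0.42 for B2m and -0.05 for H2-D1. Of the 17 interferon response genes 5 had at least 300 UMIs, of which 2 were past 2-fold on the low side and 1 had a ratio above 0, with a median log2 ratio of -0.97. The 17 genes summed to 2361 and 1171 CPM in Nefh-positive Calca neurons, to 1950.0 and 1345 CPM in Nefh-low Calca neurons and to 1702 and 480.2 CPM in Calca-low neurons, and to 9048 and 4448 CPM in cells without a neuronal UMI, so the control values were higher in each of these sets. The part of free RNA was not tested. In the class comparison 3 of these 17 rose over Nefh-low Calca neurons, with a median of 0.28 and none lower by edgeR or DESeq2 (1 at an unadjusted p below 0.05): Iigp1, Gbp2 and Cxcl9, of which single control neurons held 57.8%, 40.3% and 92.3% of the control UMIs.

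Lxn, the latexin gene, was at 266 and 127 CPM (log2 -1.06), Nptx2, a neuronal pentraxin gene, at 353 and 197 CPM (-0.84) and Parm1 at 292 and 164 CPM (-0.83). CT010467.1, an rRNA gene that overlaps AY036118 on the same strand, was at 2805 and 1567 CPM (-0.84), so reads from these genes may be split. Nefh-low Calca neurons showed Lxn at -0.44, Nptx2 at -0.30, Parm1 at -0.30 and CT010467.1 at -0.75.

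**Figure D5:**
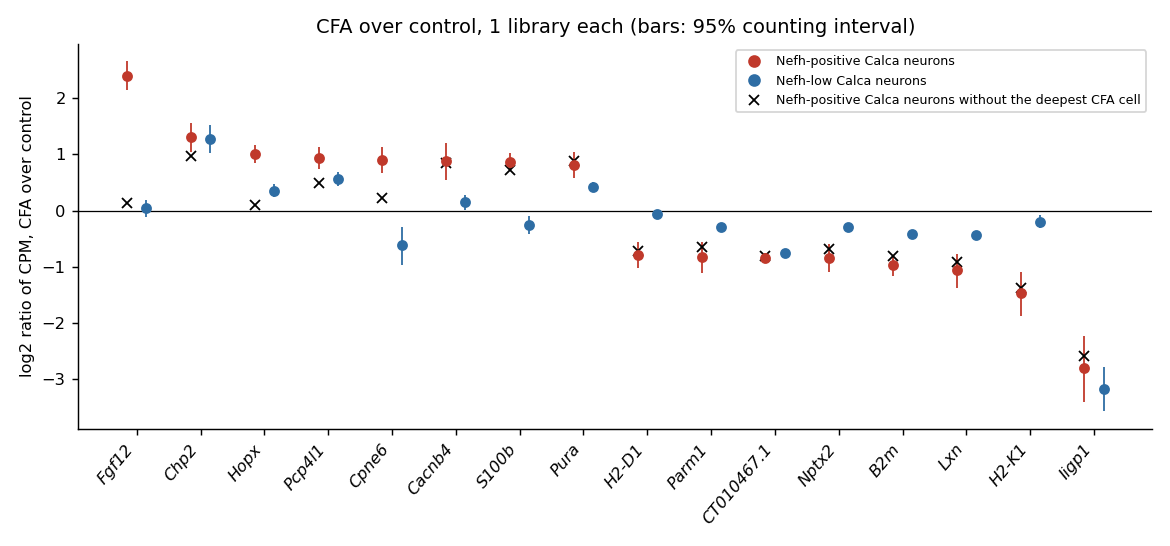
Log2 ratio of CFA over control CPM for the 8 highest and 8 lowest genes in Nefh-positive Calca neurons (red) and in Nefh-low Calca neurons (blue), with 1 library per condition and bars for the counting interval. Crosses show the ratio without the deepest CFA neuron, which brings Fgf12 from 2.39 to 0.13 and leaves Iigp1 at -2.58.

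Of 9 neuropeptide genes with at least 300 UMIs 1 had a CFA over control ratio above 0, and the median was -0.20, or -0.13 with 2 above 0 when the deepest CFA neuron was left out. Tac1 was at -0.49 (-0.54 to -0.44), Gal at -0.55 and Trpv1 at -0.35. Without that neuron they were at -0.29, -0.34 and -0.15, and in Nefh-low Calca neurons at -0.25, -0.18 and -0.17. Piezo2, with 296 UMIs just under the count limit, was at 85.3 and 169 CPM (log2 0.98, 0.65 to 1.32), against 0.37 in Nefh-low Calca neurons. Scn10a was at 0.53 and Ngfr at 0.75. Of the nerve injury genes, Atf3 was at 172 and 160 CPM (log2 -0.11, -0.41 to 0.18), and Sprr1a, Ecel1, Npy and Nts had no UMI. The immediate early gene Fos was at 0.14 (-0.01 to 0.29). In the class comparison with Nefh-low Calca neurons, 1 of 9 nerve injury genes tested fell (Gal, median log2 difference -0.23) and none rose (2 at an unadjusted p below 0.05, 0 by DESeq2), and edgeR and DESeq2 called none of 7 immediate early genes (none at an unadjusted p below 0.05 either, median -0.07).

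Of 21 genes that the study names for neurons under CFA, a list chosen on these samples and so not independent evidence, 16 had at least 300 UMIs. In Nefh-positive Calca neurons 13 of them had a ratio above 0, with a median of 0.46 and none past 2-fold. Zbtb20, a zinc finger factor, was at 346 and 568 CPM (log2 0.72), Arl6ip1, which shapes the endoplasmic reticulum, at 477 and 742 CPM (0.64), Map1b, a microtubule protein, at 2049 and 2914 CPM (0.51), and Gsk3b, a kinase, at 470.2 and 614 CPM (0.38). In Nefh-low Calca neurons these 4 were at 0.40, 0.44, 0.24 and 0.41. Of the 21 genes 1 fell against Nefh-low Calca neurons and none rose (3 at an unadjusted p below 0.05, 0 by DESeq2), with a median log2 difference of 0.01. The 1 that fell, Cd55, was not called with the limits on Mrgpra3 and Trpm8 asked of both classes (log2 -0.63).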

How the data were processed

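The authors deposited 1 matrix per library, which holds the raw UMI count of each gene in each cell. Their processing notes name GRCm38 and fastp, and the aligner and annotation are not given in the sources used here. UMI counts are not divided by gene length, so levels were compared between neurons. The most abundant or leading gene of a marker list is named by its UMIs only. Of the 7298 control and 4080 CFA cells in the files the limits on genes and mitochondrial UMIs kept 6695 and 3661, with 48233077 and 21658155 UMIs. Scrublet (expected rate 0.05) marked doublets, which were kept. Symbols were matched to GENCODE M21 for 37724 of 39098 genes. Python 3.11.15 with scanpy 1.11.5, and R 4.3.3 with edgeR 4.0.16 and DESeq2 1.42.0 were used. UMIs summed per class and library were normalised by TMM after edgeR's filter on low counts, and adjusted p-values are from its quasi-likelihood test with Benjamini-Hochberg adjustment over all genes tested. The code was tested on simulated data. Ratios of CFA over control carry exact 95% counting intervals and no test.

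The genes named were those of the lists, the 12 highest and 12 lowest against Nefh-low Calca neurons and the 6 highest and 6 lowest against Calca-low neurons, among called genes of the same sign in both libraries with at least 50 CPM in the higher class of both. For CFA over control they were the 8 highest and 8 lowest of the genes with at least 300 UMIs. A few others are given for orientation, and the 5 genes that split the neurons were picked after their values were seen. The members and the gene lists were chosen with earlier results of these data known. Markers of Mrgprd neurons, C-fibre low-threshold mechanoreceptors, Trpm8 neurons and Sst neurons summed to 43.2, 22.2, 7.01 and 2.92 CPM in control Nefh-positive Calca neurons and to 32.6, 27.0, 4.498 and 3.37 CPM in CFA ones. Alternatives changed the thresholds, filters, depth, test and block. A few genes of the lists are not reported here.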

Additional observations from a re-analysis of the deposited data

Results flagged for a closer look

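Between CFA and control, 9 genes of the lists or named genes had a log2 ratio in Nefh-positive Calca neurons opposite in sign to that in Nefh-low Calca neurons, with both counting intervals off 0. The difference between the classes was not tested, since each condition had 1 library. The share of such genes among all genes is not given here, so the 9 cannot be set against a background. The counting intervals also leave out the spread between cells. Higher in CFA Nefh-positive Calca neurons were Cpne6 (0.90, against -0.62 in Nefh-low Calca neurons), S100b (0.87, against -0.26), Cplx1, a regulator of vesicle release (0.53, against -0.60), Nefl (0.45, against -0.15), Plxnc1, a semaphorin receptor (0.34, against -0.42), and Scn2b (0.32, against -0.16). Lower were Npy1r, an NPY receptor (-0.58, against 0.57), Adcyap1 (-0.27, against 0.09) and Scg2, a granin of peptide vesicles (-0.12, against 0.18). Without the deepest CFA neuron Cplx1 turned to -0.21. The others kept their sign, with Cpne6 at 0.22, S100b at 0.72, Nefl at 0.26, Plxnc1 at 0.54, Scn2b at 0.21, Npy1r at -0.38, Adcyap1 at -0.11 and Scg2 at -0.13.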

How the results depend on the processing

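Direction and call of the named genes of both class comparisons held in all 156 when doublets were removed or the mitochondrial limit was dropped, in 150 and lost in 4 without the deepest CFA neuron, and in 107 and lost in 49 with DESeq2. They held in 120 and were lost in 23 at a Calca threshold of 10000 CPM, held in 122, were lost in 29 and changed sign in 4 at a Nefh threshold of 150 CPM, held in 64 and were lost in 31 after thinning to 5000 UMIs, and held in 55, were lost in 59 and changed sign in 3 at a Nefh threshold of 600 CPM. Where these numbers add up to fewer than 156, the remaining calls could not be tested in that setting and so did not hold. Against Nefh-low Calca neurons, DESeq2 called 63 genes as higher and 29 as lower, the fit without a library block 48 and 21, and neurons thinned to 5000 UMIs gave 40 and 14. Of the 201 calls DESeq2 shared 90 and the fit without a block 69. Lower genes numbered 138 with no filter on low counts, 28 at a Nefh threshold of 600 CPM and 145 with Nefh-low neurons under 100 CPM only, which was chosen after seeing the data. At a Calca threshold of 2500 CPM 179 genes were higher, and at 10000 CPM 75 were higher and 39 lower. Against Calca-low neurons, DESeq2 called 163 and 243 genes, thinning gave 155 and 201, a Nefh threshold of 150 CPM 783 and 915, and one of 600 CPM, which leaves 6 neurons, 57 and 94.

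Log2 values that changed sign against Nefh-low Calca neurons were those of Chrna3 (0.33) and Chrnb4 (0.37) at a Nefh threshold of 150 CPM, Cck (-7.67), Iigp1 (-9.84) and Cxcl9 (-7.46) at 600 CPM, and Synpr (0.30) with the limits on Trpm8 and Mrgpra3 for both classes. Against Calca-low neurons they were Scn10a (-0.57) and Chrna6 (-0.21) at 150 CPM. The Nefh-positive Calca neurons that remained at 600 CPM held no UMI of Cck or Iigp1, so the sizes of these values cannot be read. The cause of the sign changes was not tested.

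For CFA over control, the genes past 2-fold on the high and low sides were 6 and 15 at a Nefh threshold of 150 CPM, 6 and 7 at a Calca threshold of 2500 CPM, 0 and 6 at 10000 CPM, 0 and 1 after thinning to 5000 UMIs, and 5 and 7 with every cell weighted equally. At a Nefh threshold of 600 CPM, which left only 2 control and 4 CFA neurons, 11 were on the high side. Without the deepest CFA neuron, an alternative chosen after seeing the data, 0 were. Signs changed for Pcp4l1 (-0.24), Cpne6 (-0.45), Cacnb4 (-0.19) and Nptx2 (1.36) at 600 CPM of Nefh, Lxn (0.17) at 10000 CPM of Calca, Nptx2 (0.23) after thinning, and Iigp1 (0.0201) without the 2 control neurons that held most of it. The share of Nefh-positive Calca neurons among neurons was 16.1% (control) and 18.6% (CFA) at 150 CPM of Nefh, 0.252% and 0.978% at 600 CPM, and 3.14% and 2.20% at 10000 CPM of Calca.

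With 41 and 25 neurons, genes under 300 UMIs in sum were not ranked between libraries, and 1 deep neuron can set a level. Mice were not told apart. No paired analysis was possible because CFA and control had 1 library each, and the class comparisons had the library as their block.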
